A study of Mus musculus with 12 samples.

Results

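The 8 genes described here encode the enzymes and carriers that let the kidney make glucose from lactate, glutamine and other precursors: Pcx, Pck1, Pck2, Fbp1, G6pc, Slc37a4, Mdh1 and Ldhb. They were 8 of 18193 genes that the array annotation names by a single symbol. Each was represented by the probe set with that symbol alone whose mean over the 12 arrays was highest. Expression was measured in proximal tubules isolated from mouse kidney by Percoll density centrifugation, in 4 groups with 3 arrays each. The dB/dB catalase-Tg mice carried both the dB/dB genotype, which leaves them without a working leptin receptor and makes them obese and diabetic, and a catalase transgene. The dB/dB mice carried the mutation alone, the catalase-Tg mice the transgene alone, and the wild type mice neither. All 4 groups were 20 weeks old and ate a normal diet. In earlier work on such mice the transgene was rat catalase, the enzyme that breaks down hydrogen peroxide, expressed in proximal tubule cells under the promoter of Kap, a gene that androgen induces in the kidney. The labels used here do not name a promoter. They number the samples of a group 1 to 3 without naming animals, and the p-values thus reflect variation among these 12 samples, part or all of which may be technical.

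After the liver, the kidney is the other organ that releases newly made glucose into the blood, and in the kidney this capacity lies in the proximal tubule. Pyruvate carboxylase turns pyruvate into oxaloacetate, phosphoenolpyruvate carboxykinase turns oxaloacetate into phosphoenolpyruvate, fructose-1,6-bisphosphatase bypasses the phosphofructokinase step, and glucose-6-phosphatase frees glucose inside the endoplasmic reticulum. Fasting, acidosis, cyclic AMP and glucocorticoids are known to raise Pck1 transcription, and insulin to lower it.

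Pck1 and G6pc are the enzymes of the path best known for transcriptional control, so the 250 bases before their RefSeq transcription starts (build GRCm38.p6, plus strand of the genome) are shown first, in lower case with 2 searched motifs in capitals. The Pck1 window is chr2:173152823-173153072 and the G6pc window is chr11:101367466-101367715.
Pck1: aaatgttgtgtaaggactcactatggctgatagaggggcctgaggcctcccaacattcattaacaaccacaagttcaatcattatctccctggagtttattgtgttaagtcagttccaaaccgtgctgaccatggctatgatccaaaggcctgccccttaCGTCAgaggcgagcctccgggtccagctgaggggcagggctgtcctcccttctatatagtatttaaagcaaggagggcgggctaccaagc
G6pc: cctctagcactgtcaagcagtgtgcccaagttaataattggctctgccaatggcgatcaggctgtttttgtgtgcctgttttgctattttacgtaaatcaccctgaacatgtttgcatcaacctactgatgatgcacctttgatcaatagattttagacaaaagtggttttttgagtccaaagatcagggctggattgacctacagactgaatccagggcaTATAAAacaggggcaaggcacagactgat
The capitals mark matches on either strand, those on the minus strand shown as their reverse complement. TGACG was searched as a half-site of the cyclic AMP response element. TATAAA was searched as a TATA box. No match overlapped another. In the Pck1 window the cyclic AMP half-site began 90 bases before the start, on the minus strand. In the G6pc window the TATA box began 29 bases before the start, on the plus strand. All 8 genes matched a promoter in the table, with 11 windows between them. Outside Pck1 and G6pc, Slc37a4 held the cyclic AMP half-site in 2 of its windows, which overlap and share a match, and a TATA box in another. Of 32851 mouse promoter windows of this length, 17.8% held the cyclic AMP half-site and 12.4% the TATA box. A match describes the letters of the window and says nothing of binding in these samples.

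The preparations held proximal tubule markers on all 12 arrays, beside markers of other kidney cells. All 14 proximal tubule markers tested lay above 4 (log2) on every array, with values from 4.86 to 14.73. So did 8 of 10 loop of Henle and distal tubule markers, whose values ran from 3.18 to 14.83, and 7 of 12 endothelial markers (2.41 to 11.13). It held for 1 of 6 podocyte, 3 of 7 fibroblast and mural, 1 of 5 collecting duct and 1 of 4 leukocyte markers. In a separate list, of the last part of the proximal tubule, it held for 2 of 6 markers (2.33 to 12.61). In limma's array weights 3 arrays stood low: dB/dB catalase-Tg 1 (0.172), catalase-Tg 1 (0.287) and wild type 1 (0.227). The proximal tubule score, the mean of the 14 markers after each was centred on its mean over the 12 arrays, was -0.36, 0.62 and 0.59 in dB/dB catalase-Tg and -0.43, -0.47 and -0.34 in dB/dB. It was 0.04, 0.64 and 0.61 in catalase-Tg and -1.82, 0.71 and 0.21 in wild type. Fewer cells of a type and less RNA per cell cannot be told apart in such bulk samples. Xist, the RNA of the inactive X chromosome, read 11.91 and 6.72 on wild type 2 and wild type 3 and at most 2.67 on the other 10 arrays. Eif2s3y, a Y-chromosome gene, read 2.302 on wild type 2 and 7.88 to 8.93 elsewhere, so the wild type arrays differed among themselves in sex-linked genes, and results against wild type are also given without those 2 arrays.

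Expression values are log2 units made by the authors with GCRMA, and a difference of 1 is a 2-fold change. The 8 genes had 22 probe sets between them, of which 15 were tested after a filter on dim probe sets (above 4 on at least 3 of the 12 arrays), 3 were below it, and 4 were Pcx sets that serve as array controls. All 8 chosen probe sets lay above 4 on every array. Tests were made with limma over all 18144 probe sets that passed, with Benjamini-Hochberg adjustment, and errors after a mean are SD over 3 arrays.

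**Figure D1:**
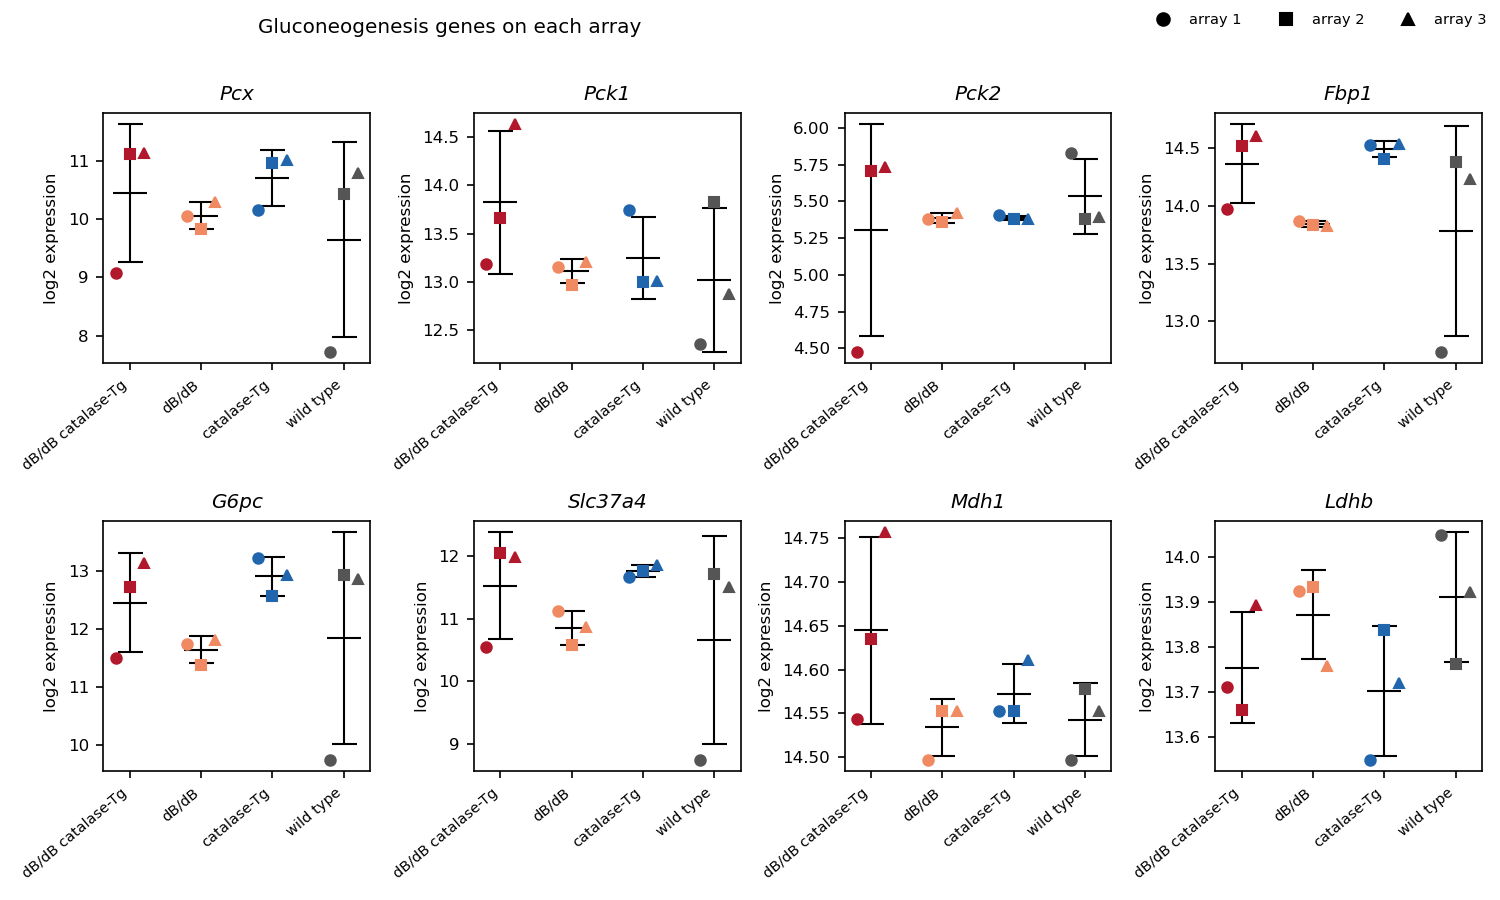
Log2 expression of the 8 genes (vertical axes, scaled to each gene) on each of 12 arrays, grouped as dB/dB catalase-Tg, dB/dB, catalase-Tg and wild type. Symbols mark the sample number, long bars the mean and whiskers the SD of 3 arrays. Wild type 1 is the lowest array for Pcx, Pck1, Fbp1, G6pc and Slc37a4, it ties with dB/dB 1 as the lowest for Mdh1, and the 3 dB/dB arrays lie close together.

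Pyruvate carboxylase (Pcx), the mitochondrial enzyme that opens the path from lactate and alanine, ranged over 3.41 log2 units. It read 9.08, 11.11 and 11.14 in dB/dB catalase-Tg, 10.06, 9.83 and 10.29 in dB/dB, 10.15, 10.96 and 11.01 in catalase-Tg, and 7.72, 10.43 and 10.80 in wild type. The first-numbered array was the low one in both dB/dB catalase-Tg and wild type, while the dB/dB arrays agreed among themselves and sat between. Group means were 10.44 ± 1.18 in dB/dB catalase-Tg, 10.06 ± 0.23 in dB/dB, 10.71 ± 0.48 in catalase-Tg and 9.65 ± 1.68 in wild type. No pair of groups was separate: every comparison had overlapping values.

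Pcx is also carried by the array as a labelling control, with probe sets at its 3′ end, its middle and its 5′ end, and these were read as a description. The 3′ control read 9.25, 10.61 and 10.68 in dB/dB catalase-Tg, 9.79, 9.74 and 9.96 in dB/dB, 9.76, 10.38 and 10.43 in catalase-Tg, and 7.57, 9.96 and 10.21 in wild type. Its order over the arrays followed that of the gene probe set closely, with the same 2 low arrays. The 5′ control read 3.20, 6.20 and 5.20 in dB/dB catalase-Tg, 3.10, 3.12 and 3.11 in dB/dB, 4.29, 4.96 and 5.80 in catalase-Tg, and 3.07, 4.28 and 3.63 in wild type. All 3 dB/dB arrays, dB/dB catalase-Tg 1 and wild type 1 read between 3.07 and 3.20 there, near the lower limit of the scale, so their 3′ minus 5′ differences are lower bounds. These were at least 6.62 to 6.85 in dB/dB, at least 6.04 on dB/dB catalase-Tg 1 and at least 4.49 on wild type 1. The other differences were 4.40 and 5.47 in dB/dB catalase-Tg, 4.63 to 5.47 in catalase-Tg, and 5.68 and 6.58 in wild type. The Pcx difference was thus larger on all 3 dB/dB arrays than on the 3 catalase-Tg arrays. Whether it overlaps between dB/dB and dB/dB catalase-Tg or wild type cannot be read from the 3′ and 5′ controls. The middle A control read 4.13, 4.20 and 4.15 in dB/dB, and 4.66, 6.84 and 5.97 in dB/dB catalase-Tg. It read 5.10, 5.83 and 6.60 in catalase-Tg, and 3.52, 4.92 and 4.74 in wild type. Only wild type 1 read below the dB/dB arrays there. For Gapdh the 3′ minus 5′ difference was -0.0585 to 0.375 in dB/dB catalase-Tg, 0.121 to 0.613 in dB/dB, -0.108 to 0.119 in catalase-Tg and -0.0143 to 0.181 in wild type. All 3 dB/dB arrays lay above the 3 catalase-Tg arrays for Gapdh, narrowly, and its other pairs of groups overlapped. For Actb it was 1.95 to 2.25 in dB/dB catalase-Tg, 1.93 to 2.34 in dB/dB, 2.01 to 2.18 in catalase-Tg and 1.85 to 2.50 in wild type. The Actb ranges overlapped in every pair of groups. The part of RNA quality in the Pcx values was not tested.

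**Figure D2:**
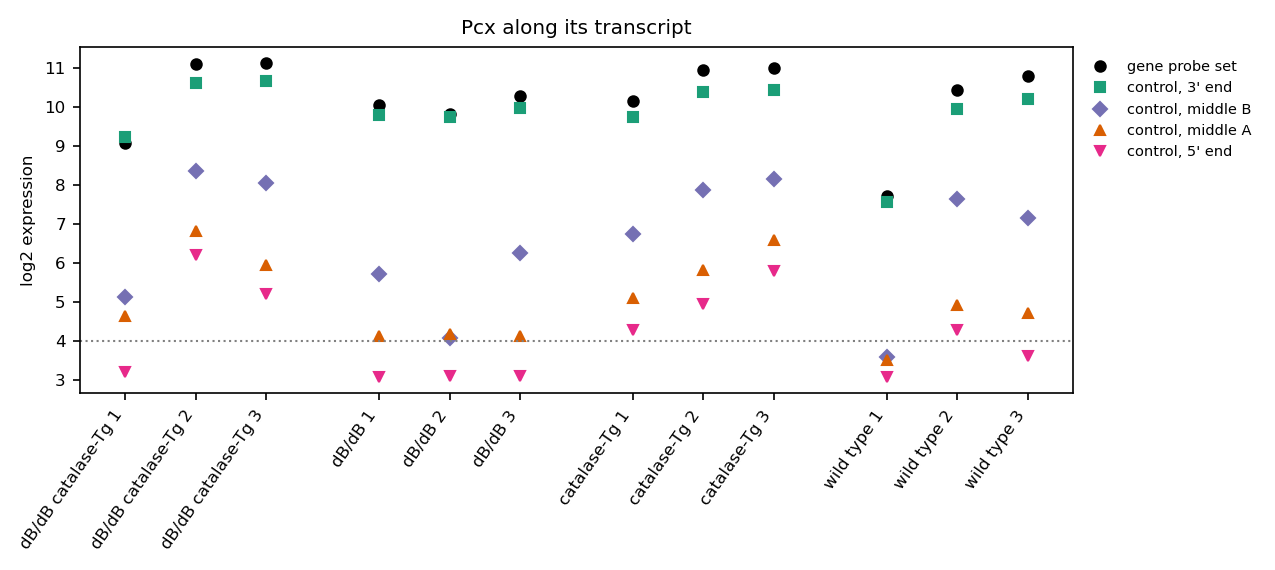
Log2 expression of the Pcx gene probe set and of 4 Pcx control probe sets from the 3′ to the 5′ end of its transcript (vertical axis) on each of 12 arrays (horizontal axis). The dotted line is the filter at 4. The 5′ set reads 3.10 to 3.12 in dB/dB and up to 6.20 in dB/dB catalase-Tg.

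Cytosolic phosphoenolpyruvate carboxykinase (Pck1), often taken as the rate-setting enzyme of gluconeogenesis, was high on every array. It read 13.18, 13.66 and 14.63 in dB/dB catalase-Tg, 13.15, 12.97 and 13.21 in dB/dB, 13.74, 12.99 and 13.01 in catalase-Tg, and 12.35, 13.83 and 12.88 in wild type. A single array, dB/dB catalase-Tg 3, held the highest value, and the other 2 arrays of that group lay within the range of the rest. Group means were 13.82 ± 0.74 in dB/dB catalase-Tg, 13.11 ± 0.12 in dB/dB, 13.25 ± 0.43 in catalase-Tg and 13.02 ± 0.75 in wild type. A second Pck1 probe set spread much more widely. It read 8.90, 11.51 and 12.81 in dB/dB catalase-Tg, 9.32, 8.35 and 9.58 in dB/dB, 11.57, 10.52 and 10.91 in catalase-Tg, and 7.71, 11.54 and 9.68 in wild type. On it the catalase-Tg arrays were all above the dB/dB arrays, which was not so on the brighter set. Those 2 groups differ in both mutation and transgene, and the share of all probe sets that separate there was not counted. The remaining Pck1 set lay below the filter, with only wild type 2 (5.80) above 4.

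Mitochondrial phosphoenolpyruvate carboxykinase (Pck2), which makes phosphoenolpyruvate inside the mitochondrion, gave a low signal. It read 4.47, 5.71 and 5.73 in dB/dB catalase-Tg, 5.38, 5.36 and 5.42 in dB/dB, 5.41, 5.38 and 5.38 in catalase-Tg, and 5.83, 5.38 and 5.40 in wild type. The 8 values of dB/dB, catalase-Tg and the other 2 wild type arrays lay between 5.36 and 5.42, and the outer values included those of the first-numbered arrays of dB/dB catalase-Tg and wild type, in opposite directions. Its other probe set stayed between 2.32 and 2.38 on all arrays.

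Fructose-1,6-bisphosphatase (Fbp1), the form found in liver and kidney, was the only gene of the 8 whose groups separated in any of the 4 comparisons of a pair of groups. It read 13.97, 14.52 and 14.61 in dB/dB catalase-Tg, 13.87, 13.84 and 13.82 in dB/dB, 14.53, 14.41 and 14.54 in catalase-Tg, and 12.73, 14.38 and 14.23 in wild type. Every dB/dB catalase-Tg array was above every dB/dB array, and every catalase-Tg array was above every wild type array, although the nearest arrays lay very close. Group means were 14.37 ± 0.34 in dB/dB catalase-Tg, 13.84 ± 0.02 in dB/dB, 14.49 ± 0.07 in catalase-Tg and 13.78 ± 0.91 in wild type.

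The last step needs G6pc, the catalytic subunit of glucose-6-phosphatase, and Slc37a4, the transporter that carries glucose 6-phosphate into the endoplasmic reticulum. G6pc read 11.49, 12.72 and 13.13 in dB/dB catalase-Tg, 11.74, 11.38 and 11.81 in dB/dB, 13.22, 12.56 and 12.93 in catalase-Tg, and 9.75, 12.93 and 12.86 in wild type. Slc37a4 read 10.54, 12.04 and 11.98 in dB/dB catalase-Tg, 11.12, 10.58 and 10.86 in dB/dB, 11.67, 11.75 and 11.85 in catalase-Tg, and 8.75, 11.71 and 11.51 in wild type. For both genes wild type 1 was the lowest of the 12 arrays and dB/dB catalase-Tg 1 the lowest of its group, and the 3 dB/dB arrays lay below the 3 catalase-Tg arrays for both. G6pc means were 12.45 ± 0.85 in dB/dB catalase-Tg, 11.64 ± 0.23 in dB/dB, 12.90 ± 0.33 in catalase-Tg and 11.84 ± 1.81 in wild type. Slc37a4 means were 11.52 ± 0.85 in dB/dB catalase-Tg, 10.85 ± 0.27 in dB/dB, 11.76 ± 0.09 in catalase-Tg and 10.66 ± 1.65 in wild type.

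Cytosolic malate dehydrogenase (Mdh1), which turns exported malate back into oxaloacetate, and the lactate dehydrogenase B chain (Ldhb), which feeds lactate in as pyruvate, barely varied on the chosen probe sets. Mdh1 read 14.54, 14.63 and 14.76 in dB/dB catalase-Tg, 14.50, 14.55 and 14.55 in dB/dB, 14.55, 14.55 and 14.61 in catalase-Tg, and 14.50, 14.58 and 14.55 in wild type. Ldhb read 13.71, 13.66 and 13.89 in dB/dB catalase-Tg, 13.93, 13.93 and 13.76 in dB/dB, 13.55, 13.84 and 13.72 in catalase-Tg, and 14.05, 13.76 and 13.92 in wild type. Like Pck1 and Fbp1, both were near the top of the scale, where array signal rises less than the RNA does, so folds of these 4 genes may be understated. The groups overlapped in every comparison for Mdh1 and for Ldhb. Over the 12 arrays the SD was 0.07 for Mdh1 and 0.14 for Ldhb, against 0.34 for Pck2, 0.53 for Fbp1, 0.59 for Pck1, 0.93 for Slc37a4, 1.00 for Pcx and 1.02 for G6pc. The median SD of all probe sets tested was 0.41, and 36.9% of them were above 0.5, as were 5 of the 8 genes. Mdh1 had 3 further tested probe sets and Ldhb had 3, and none of these was called in any comparison. The further Mdh1 sets moved more than the chosen one. In dB/dB against wild type they differed by -0.13 (SE 0.17), -0.12 (SE 0.25) and -0.33 (SE 0.18). In dB/dB catalase-Tg against dB/dB the same sets differed by 0.13, -0.36 and 0.31.

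In dB/dB against wild type, the comparison that shows the mutation without the transgene, none of the 8 genes passed the test at an adjusted p of 0.05. Over all probe sets 0% passed in limma, while 755 had an unadjusted p under 0.05, none of them among the 8 genes. Of the 8 differences 4 were above 0, with a median of 0.03 against -0.11 over all probe sets. Pcx differed by 0.41 (SE 0.77, 1.33-fold), Slc37a4 by 0.20 (SE 0.69), Pck1 by 0.09 (SE 0.43), Fbp1 by 0.06 (SE 0.37), Mdh1 by -0.01 (SE 0.13) and Ldhb by -0.04 (SE 0.16). Pck2 differed by -0.15 (SE 0.30) and G6pc by -0.20 (SE 0.74, 0.870-fold). The limma adjusted p-values ran from 0.853 to 0.984. The 95% interval of the G6pc difference was -1.85 to 1.45 and that of Pck1 was -0.86 to 1.04, so sizeable changes either way were not detectable with 3 arrays a group. None of the 8 genes had groups without overlap, against 11.4% of all probe sets.

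The values changed with the arrays used. Without dB/dB catalase-Tg 1, catalase-Tg 1 and wild type 1, G6pc had a difference of -1.25 (SE 0.20, adjusted p = 0.00634 in limma), Slc37a4 one of -0.76 (SE 0.18, adjusted p = 0.0207) and Fbp1 one of -0.46 (SE 0.13, adjusted p = 0.0316). Over all alternatives the highest adjusted p of each was 1. That made 3 of 8 genes called, where 26.9% of all probe sets were called in the same fit. The only wild type arrays in that fit were wild type 2 and wild type 3, which carried Xist signal. The mutation and this sex-linked difference cannot be told apart there. Without wild type 1 alone the Slc37a4 difference was also -0.76 and the Pcx difference -0.55, neither called. Without wild type 2 and wild type 3, the arrays with Xist, the G6pc difference turned to 1.89 and none was called; there the lone wild type array was assumed to vary like the others. The proximal tubule score averaged over 14 markers was -0.34 or lower on all dB/dB arrays, inside the range of wild type, and the endothelial score was 0.87 to 1.82 in dB/dB against -1.47 to 1.47 in wild type.

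In dB/dB catalase-Tg against dB/dB, the effect of the transgene on the diabetic background, 6 of the 8 genes read higher on average and none passed the test, where 0.00551% of all probe sets did. None had an unadjusted p under 0.05 here or in the next 2 comparisons, where 7.50%, 9.15% and 6.86% of all probe sets did, so a count of 0 of 8 is near the background. The median of the 8 differences was 0.45, against -0.02 over all probe sets. G6pc differed by 0.81 (SE 0.74, 1.75-fold), Pck1 by 0.71 (SE 0.43, 1.64-fold), Slc37a4 by 0.67 (SE 0.69, 1.59-fold), Fbp1 by 0.52 (SE 0.37, 1.44-fold), Pcx by 0.38 (SE 0.77) and Mdh1 by 0.11 (SE 0.13). Pck2 differed by -0.08 (SE 0.30) and Ldhb by -0.12 (SE 0.16). The limma adjusted p-values ran from 0.636 to 0.934. The second Pck1 probe set differed by 1.99 (SE 1.04, 3.97-fold), again not called. The groups did not overlap for Fbp1, which was higher on all 3 dB/dB catalase-Tg arrays, as were 4.87% of all probe sets.

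The calls of this comparison changed with the weights of the arrays. Without dB/dB catalase-Tg 1 alone none of the 8 was called, with G6pc at 1.28 and Slc37a4 at 1.16. With array weights, which changed the weight of all 12 arrays, 5 of the 8 genes were called higher in dB/dB catalase-Tg in limma, namely G6pc (1.17, adjusted p = 0.0175), Slc37a4 (1.03, adjusted p = 0.017), Pck1 (1.00, adjusted p = 0.018), Pcx (0.91, adjusted p = 0.0433) and Fbp1 (0.70, adjusted p = 0.00854). In that fit 38.5% of all probe sets were called. Over all alternatives the adjusted p of these genes reached 1.00. Without dB/dB catalase-Tg 1, catalase-Tg 1 and wild type 1, 4 of the 8 were called, namely G6pc (1.28), Slc37a4 (1.16), Pcx (1.06) and Fbp1 (0.72), beside 27.8% of all probe sets. The proximal tubule markers moved the same way: 14 of 14 had a mean difference above 0, with a median of 0.69, and none was called. All 12 endothelial markers, 6 of 6 podocyte markers and 7 of 7 fibroblast and mural markers tested had a difference below 0, with medians of -1.58, -2.64 and -1.69. With the proximal tubule score as a covariate, added after the data were seen, the differences were 0.39 for Pck1, 0.09 for Fbp1, -0.06 for G6pc, -0.17 for Slc37a4 and -0.55 for Pcx, none called.

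**Figure D3:**
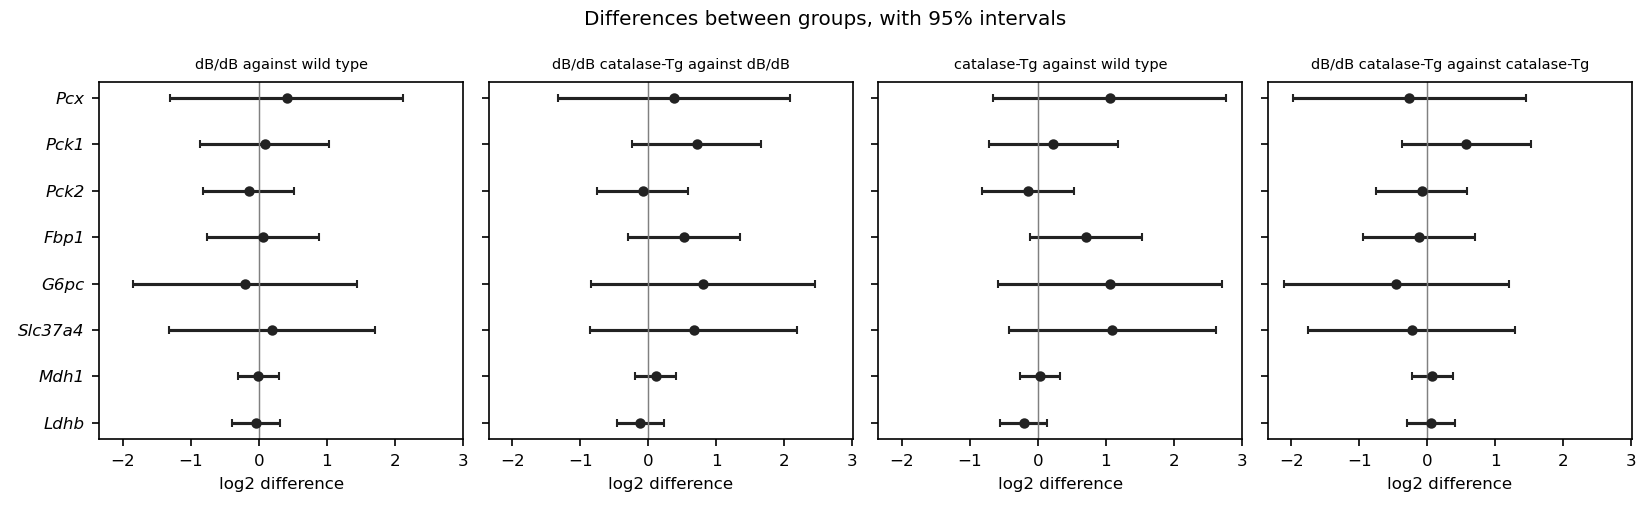
Log2 difference (horizontal axis) of the 8 genes in 4 comparisons, written as the group before "against" minus the group after it, with 95% intervals from limma over all 12 arrays. All 32 intervals include 0, and those of Mdh1 and Ldhb are the narrowest.

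In catalase-Tg against wild type, the transgene without the mutation, none of the 8 genes passed the test, where 0.022% of all probe sets did. Slc37a4 differed by 1.10 (SE 0.69, 2.14-fold), G6pc by 1.06 (SE 0.74, 2.08-fold), Pcx by 1.06 (SE 0.77, 2.08-fold), Fbp1 by 0.71 (SE 0.37, 1.64-fold), Pck1 by 0.23 (SE 0.43) and Mdh1 by 0.03 (SE 0.13). Pck2 differed by -0.15 (SE 0.30) and Ldhb by -0.21 (SE 0.16). The median was 0.47, against -0.02 over all probe sets, and the limma adjusted p-values ran from 0.582 to 0.962. Fbp1 was higher on all 3 catalase-Tg arrays than on any wild type array, as were 5.74% of all probe sets. Against wild type 1 as the only wild type array, with the lone array assumed to vary like the others, 4 of the 8 genes were called: G6pc (3.15), Slc37a4 (3.00), Pcx (2.98) and Fbp1 (1.76), beside 12% of all probe sets. Wild type 1 was the lowest of the 12 arrays for these 4 genes and had a proximal tubule score of -1.82. These differences are thus distances to a single low array. Without dB/dB catalase-Tg 1, catalase-Tg 1 and wild type 1 the differences were 0.37 for Pcx, 0.19 for Slc37a4, 0.17 for Fbp1 and -0.15 for G6pc, with none called. The proximal tubule markers had 13 of 14 differences above 0 in this comparison, with a median of 0.66.

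In dB/dB catalase-Tg against catalase-Tg, the mutation among transgenic mice, none of the 8 genes passed the test, where 0.0276% of all probe sets did. Pck1 differed by 0.57 (SE 0.43, 1.49-fold), Mdh1 by 0.07 (SE 0.13) and Ldhb by 0.05 (SE 0.16). The other 5 were below 0: Pck2 by -0.08 (SE 0.30), Fbp1 by -0.13 (SE 0.37), Slc37a4 by -0.23 (SE 0.69), Pcx by -0.26 (SE 0.77) and G6pc by -0.45 (SE 0.74). The median was -0.11, against -0.10 over all probe sets, and the limma adjusted p-values ran from 0.798 to 0.957. None had groups without overlap, against 16% of all probe sets. With array weights Pck1 was called, at 1.11 (SE 0.27, adjusted p = 0.0417, with up to 0.991 under other alternatives), as the only such gene among the 8, beside 4.87% of all probe sets. On the second Pck1 probe set the difference of this comparison was 0.07 (SE 1.04) with equal weights.

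Whether the transgene acted differently on the 2 backgrounds was tested as an interaction, and none of the 8 genes passed, where 0.00551% of all probe sets did. The interaction was 0.48 (SE 0.61) for Pck1 and -0.68 (SE 1.09) for Pcx, with the other 6 between. Averaged over both backgrounds, none of the 8 genes passed for the transgene, where 0.0276% of all probe sets did. Fbp1 came nearest, at 0.62 (SE 0.26, 1.53-fold) with an adjusted p of 0.257 in limma, and G6pc differed by 0.93 (SE 0.53), Slc37a4 by 0.88 (SE 0.49), Pcx by 0.72 (SE 0.55) and Pck1 by 0.47 (SE 0.30). For the transgene average, array weights called 2 of the 8 genes beside 26.4% of all probe sets. Leaving out dB/dB catalase-Tg 1, catalase-Tg 1 and wild type 1 called 4 beside 20.5%, and leaving out wild type 2 and wild type 3 called 4 beside 18.6%. The second Pck1 set had an average transgene difference of 1.67 (SE 0.74, 3.19-fold) and did not pass. For the average dB/dB effect none of the 8 passed, where 0.0165% of all probe sets did, and the differences ran from -0.33 for G6pc (SE 0.53) to 0.33 for Pck1 (SE 0.30). Leaving out the same 3 arrays called G6pc there, beside 19.4% of all probe sets.

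The genes with the widest spread followed the proximal tubule markers over the arrays. After the proximal tubule score of each array was subtracted, the SD over the 12 arrays was 0.43 for G6pc, against 1.02 before. It was 0.42 against 1.00 for Pcx, 0.30 against 0.93 for Slc37a4 and 0.28 against 0.53 for Fbp1. Pck1 did not narrow, at 0.60 against 0.59. Its values relative to the score were 0.24, -0.26 and 0.74 in dB/dB catalase-Tg, 0.28, 0.14 and 0.25 in dB/dB, 0.40, -0.95 and -0.90 in catalase-Tg, and 0.87, -0.18 and -0.63 in wild type. Pck1 was thus low relative to the tubule markers on catalase-Tg 2 and 3, and high on wild type 1 and dB/dB catalase-Tg 3. Pck2, Mdh1 and Ldhb spread more after subtraction, at 0.82, 0.70 and 0.82, since their own values hardly moved. Slc37a4 relative to the score differed little between groups, with means of 0.04 ± 0.29 in dB/dB catalase-Tg, 0.07 ± 0.26 in dB/dB, 0.13 ± 0.27 in catalase-Tg and -0.24 ± 0.37 in wild type.

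**Figure D4:**
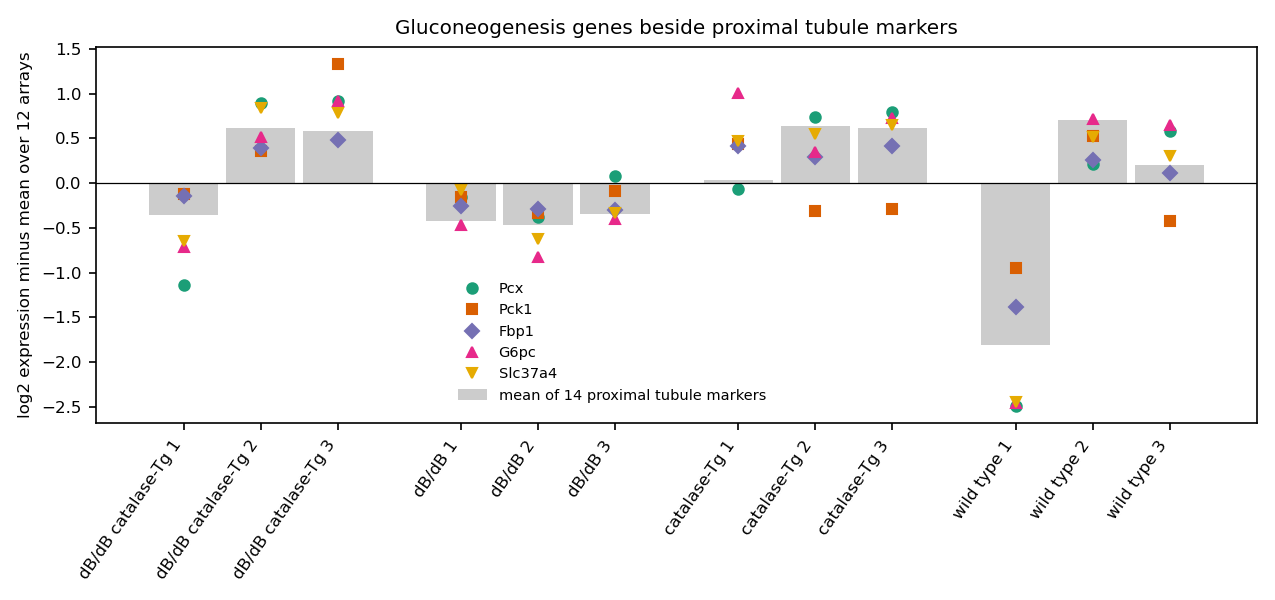
Log2 expression of Pcx, Pck1, Fbp1, G6pc and Slc37a4, each minus its mean over the 12 arrays (points), beside the mean of 14 proximal tubule markers centred the same way (grey bars), by array. On wild type 1 the bar is at -1.82 and all 5 genes are at their lowest, while on catalase-Tg 2 and 3 Pck1 is below 0 and the other 4 are above it.

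Among 9750 other genes, those whose centred values lay nearest to these genes over the 12 arrays were sought for the 5 with an SD above 0.5, as a description. Likeness was the mean absolute difference of centred values. For G6pc the nearest were Msra (0.190), a methionine sulfoxide reductase, and Ddc (0.202), which makes dopamine in the proximal tubule, and Slc37a4 came next (0.215). Slc37a4 and Pcx shared the same nearest genes: Shmt2, mitochondrial serine hydroxymethyltransferase, at 0.163 from Slc37a4 and 0.189 from Pcx, and Cyp2j5, a cytochrome of the kidney, at 0.179 from Slc37a4 and 0.202 from Pcx. For Fbp1 they were Ccdc107 (0.0994) and Idh1 (0.101), cytosolic isocitrate dehydrogenase. For Pck1 they were Sdccag8 (0.204) and Gsta2 (0.237), a glutathione transferase, with Fbp1 in place 42 and Slc37a4 in place 4306.

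Of the lists of neighbouring pathways, which hold 88 tested genes in all, no gene passed limma's test in any of the 7 comparisons. At an unadjusted p under 0.05 there were 3 of 88 in dB/dB against wild type (3.41%, against 4.16% of all probe sets), 9 in dB/dB catalase-Tg against dB/dB (10.2% against 7.50%), 9 in catalase-Tg against wild type (10.2% against 9.15%) and 11 in dB/dB catalase-Tg against catalase-Tg (12.5% against 6.86%). There were 2 for the interaction (2.27% against 1.64%), 15 for the average dB/dB effect (17.0% against 12.2%) and 22 for the average transgene effect (25.0% against 18.1%). No test was made of these shares. The substrate entry list (lactate carriers, aminotransferases, malate and aspartate shuttle, 19 genes tested) had 16 genes higher in dB/dB catalase-Tg than in dB/dB, with a median of 0.85. Within it Slc5a12, a sodium-coupled lactate carrier of the proximal tubule, averaged 11.78 ± 1.03 in dB/dB catalase-Tg and 10.35 ± 0.23 in dB/dB (difference 1.43, SE 0.54). Ldhd, which oxidises D-lactate, averaged 10.47 ± 0.59 in dB/dB catalase-Tg and 8.91 ± 0.32 in dB/dB, without overlap, and the mitochondrial citrate carrier Slc25a1 averaged 7.69 ± 0.67 in dB/dB catalase-Tg and 6.78 ± 0.49 in dB/dB. In dB/dB against wild type 5 of the 19 were higher, with a median of -0.31. The genes chosen there were Slc25a1 (-0.92, SE 0.43), the monocarboxylate carrier Slc16a7 (1.66, SE 0.87) and the aspartate-glutamate carrier Slc25a12 (0.47, SE 0.28).

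The glutamine and ammonia list mixes roles. It holds genes of the path by which the tubule turns glutamine into glucose and ammonium. It also holds amino acid carriers and glutamine synthetase, which makes glutamine. This list had 11 of 12 genes higher in dB/dB catalase-Tg than in dB/dB, with a median of 0.50. In dB/dB against wild type 0 of 12 were higher, with a median of -0.30. Of all probe sets 48.3% and 38.0% were above 0 in these comparisons. The proximal tubule markers had 14 of 14 above 0 in dB/dB catalase-Tg against dB/dB (median 0.69) and 6 of 14 in dB/dB against wild type (median -0.09), and their part in the values of this list and of the substrate entry and fructose lists was not tested. Glul, glutamine synthetase, averaged 11.07 ± 0.65 in dB/dB catalase-Tg and 10.14 ± 0.08 in dB/dB, and the cystine carrier Slc7a9 averaged 11.61 ± 0.21 in dB/dB catalase-Tg and 10.93 ± 0.25 in dB/dB, both without overlap. Dlst, a subunit of the 2-oxoglutarate dehydrogenase complex, averaged 9.79 ± 0.94 in dB/dB catalase-Tg and 9.08 ± 0.36 in dB/dB. In dB/dB against wild type the differences of these 3 genes were -0.53 (Glul), -0.51 (Slc7a9) and -0.71 (Dlst). The fructose and glycerate list had all 5 tested genes higher in dB/dB catalase-Tg than in dB/dB, with a median of 1.15. Tkfc, triokinase, averaged 7.40 ± 0.89 in dB/dB catalase-Tg and 5.61 ± 0.66 in dB/dB, without overlap, while ketohexokinase (Khk, 1.09, SE 0.73) and the fructose carrier Slc2a5 (1.58, SE 1.16) overlapped. In dB/dB against wild type 1 of the 5 was above 0, with Glyctk at -1.25 (SE 0.91), Tkfc at -0.56 (SE 0.68) and Khk at -0.24 (SE 0.73).

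The steps shared with glycolysis had 5 of 9 genes higher in dB/dB catalase-Tg than in dB/dB, with a median of 0.11. Tpi1, triosephosphate isomerase, differed by 0.41 (SE 0.29), Pgk1, phosphoglycerate kinase, by 0.25 (SE 0.18), and Pgam2, the muscle type of phosphoglycerate mutase, by -1.41 (SE 1.14). In dB/dB against wild type 4 of 9 were higher, where Eno3 differed by 0.72 (SE 0.41), Aldoc by 0.83 (SE 0.47) and Pgk1 by -0.29 (SE 0.18). The remaining enzyme list mixes roles: it holds enzymes of glycolysis that gluconeogenesis bypasses, and pyruvate dehydrogenase with the kinases that inactivate it and so spare pyruvate. Of its 12 genes tested, 3 had a difference above 0 in dB/dB catalase-Tg against dB/dB, with a median of -0.35, and none was called. Pdk2, one of those kinases, averaged 7.45 ± 1.04 in dB/dB catalase-Tg and 8.80 ± 0.46 in dB/dB, and Pfkm, a phosphofructokinase, averaged 7.68 ± 0.16 in dB/dB catalase-Tg and 8.14 ± 0.15 in dB/dB. Pklr, the pyruvate kinase of liver and kidney, averaged 6.77 ± 0.45 in dB/dB catalase-Tg and 5.54 ± 0.46 in dB/dB, and none of these 3 overlapped. In dB/dB against wild type 8 of the 12 differences were above 0, with a median of 0.21 and none called, among them the kinase Pdk1 (1.48, SE 0.57), Pkm (1.74, SE 0.98) and Pfkp (1.49, SE 0.85). On the score of this list the 3 catalase-Tg arrays lay between -0.81 and -0.72 and the 3 dB/dB arrays between 0.44 and 0.76. The loop of Henle and distal tubule markers ran between -2.17 and -1.39 on those catalase-Tg arrays and between 0.96 and 1.38 on the dB/dB arrays, and their part in the list's values was not tested.

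Regulators of gluconeogenic genes were spread on both sides, with 17 of 31 higher in dB/dB catalase-Tg than in dB/dB (median 0.04) and 15 of 31 higher in dB/dB than in wild type (median -0.04). Cebpa, a C/EBP factor that in mouse liver drives gluconeogenic genes, averaged 5.65 ± 0.78 in dB/dB catalase-Tg and 4.17 ± 0.77 in dB/dB, and 5.48 ± 0.78 in wild type. Esrra, an orphan receptor that works with PGC-1 coactivators, averaged 7.83 ± 0.31 in dB/dB catalase-Tg, 7.21 ± 0.43 in dB/dB and 7.79 ± 0.08 in wild type. Both were lower on all dB/dB arrays than on any array of the 2 other groups named, narrowly. The dB/dB arrays stand in both comparisons, so these are not separate observations. Of all probe sets, 11.4% had groups without overlap in dB/dB against wild type, in either direction. In dB/dB catalase-Tg against dB/dB 4.87% were higher without overlap. Cebpa read 3.28 to 4.68 in dB/dB, around the filter at 4, and its lowest value in both other groups was 4.85. The highest Esrra value in dB/dB was 7.63, against lowest values of 7.65 in dB/dB catalase-Tg and 7.70 in wild type. Irs1, an insulin receptor substrate, averaged 6.25 ± 0.58 in dB/dB catalase-Tg and 7.81 ± 0.24 in dB/dB, without overlap, and Akt2, an insulin-signalling kinase, averaged 5.69 ± 0.24 in dB/dB and 6.15 ± 0.14 in wild type. The limma adjusted p of these 4 genes in these comparisons was 0.636 or 0.767.

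**Figure D5:**
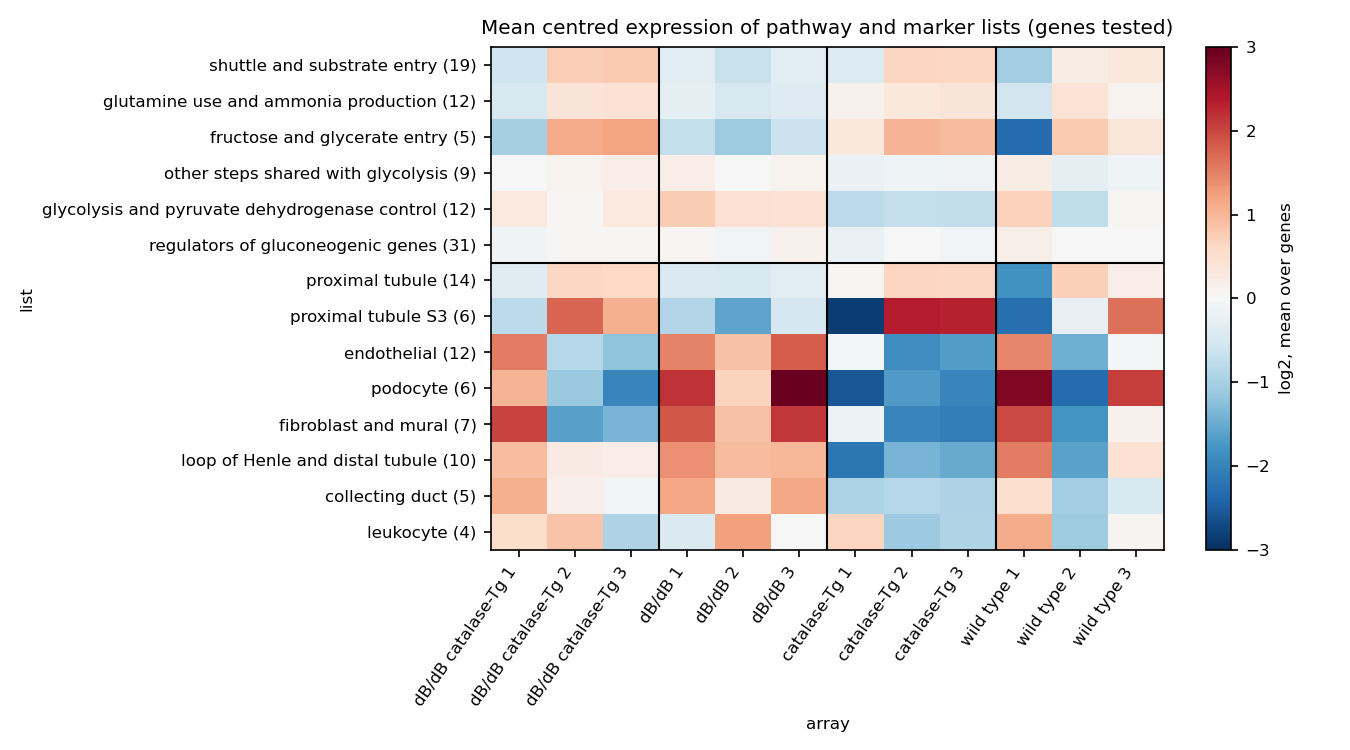
Mean log2 expression of the genes of 6 pathway lists (above the line) and 8 cell type marker lists (below it), each gene centred on its mean over 12 arrays, with arrays across and the number of genes tested in brackets. On dB/dB catalase-Tg 2 and 3, catalase-Tg 2 and 3 and wild type 2 the entry lists are red. The endothelial, podocyte and mural lists are blue there. The reverse holds on wild type 1, dB/dB catalase-Tg 1 and all 3 dB/dB arrays, while catalase-Tg 1 and wild type 3 are mixed.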

How the data were processed

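An Affymetrix mouse array with 45101 probe sets was used, once per sample. The deposited log2 values were made by the authors with GCRMA, per the submitters' processing notes, which also name limma, and the versions are not given in the sources used here. They ran from 2.302, where many probe sets lay, to 15.66. GCRMA equalises the distribution of the arrays, so only differences relative to the rest of an array are measured. Precision is limited by the 3 arrays of a group.

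The 64 array control sets were not tested. By GEO's annotation of the platform 34945 of the others had 1 gene symbol, 932 several and 9160 none. Probe sets above 4 on at least 3 of 12 arrays entered limma 3.58.1 (R 4.3.3), 18144 in all, in a single model of the 4 group means with 7 contrasts, 95% intervals and Benjamini-Hochberg adjustment at 0.05. The tables were made with Python 3.11.15 and pandas 2.3.3, and the fit was tested on simulated data. The promoters are RefSeq's (GRCm38.p6).

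The 8 genes, the lists and the alternatives were chosen with earlier results of these data known. Genes named from a pathway list are the 3 with the lowest unadjusted p in dB/dB catalase-Tg against dB/dB and in dB/dB against wild type. Groups without overlap among them thus follow in part from that choice. The share of all probe sets lower without overlap in dB/dB catalase-Tg against dB/dB was not counted. The nearest 2 genes are named for each of the 8 whose SD was above 0.5. List genes without a probe set of their own symbol were not analysed here. Same-numbered arrays deviated together in part: of 18 pairs 13 correlated above 0.1 (from -0.18 to 0.71). Pairs with different numbers ran from -0.63 to 0.58. Among the 3 arrays with low weights, wild type 1 correlated with dB/dB catalase-Tg 1 at 0.71 and with catalase-Tg 1 at 0.40. Catalase-Tg 1 correlated with dB/dB catalase-Tg 1 at 0.61. With dB/dB 1 these 3 arrays correlated at 0.17, -0.09 and -0.05 (wild type 1, catalase-Tg 1, dB/dB catalase-Tg 1). The labels do not say that a number marks a shared animal or batch.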

Additional observations from a re-analysis of the deposited data

How the results depend on the processing

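The difference of each of the 8 genes in the 4 comparisons was recomputed 824 times in all: 730 values kept their direction and their side of the threshold, 15 kept their direction and passed it, and 79 turned sign, mostly for differences smaller than their standard error. No gene was called under either filter, quantile normalization, median centring, the trended robust prior, the 2 groups alone, the replicate block, any single array left out, either covariate or 1 probe set per gene. The number of genes called was 3 in dB/dB against wild type without dB/dB catalase-Tg 1, catalase-Tg 1 and wild type 1; 5 with array weights and 4 without those 3 arrays in dB/dB catalase-Tg against dB/dB; 4 without wild type 2 and 3 in catalase-Tg against wild type; 1 with array weights in dB/dB catalase-Tg against catalase-Tg; 1 without the 3 arrays for the average dB/dB effect; and 2, 4 and 4 for the average transgene effect with array weights, without the 3 arrays and without wild type 2 and 3. Probe sets called over the whole array ran from 0 to 4875, 0 to 6989, 0 to 2180 and 1 to 883 in the 4 comparisons, against 0, 1, 4 and 5 with equal weights and all arrays; the weights were fitted without reaching limma's convergence tolerance. With the replicate block the Fbp1 difference in dB/dB catalase-Tg against dB/dB was 0.52 (SE 0.33, adjusted p = 0.496 in limma), and it changed no call of the 8 genes. In catalase-Tg against wild type and in dB/dB catalase-Tg against catalase-Tg all 3 same-numbered pairs correlated above 0.1. The cause of the changes below was not tested.

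Without wild type 2 and 3 the differences that turned sign were, in dB/dB against wild type G6pc 1.89 and Mdh1 0.0375. Without dB/dB catalase-Tg 1, catalase-Tg 1 and wild type 1 the differences that turned sign were, in dB/dB against wild type Pck1 -0.24, Fbp1 -0.46, Pcx -0.55, Slc37a4 -0.76 and Ldhb 0.0306, in dB/dB catalase-Tg against dB/dB Pck2 0.34, in catalase-Tg against wild type Pck1 -0.35 and G6pc -0.15, in dB/dB catalase-Tg against catalase-Tg Pck2 0.34, G6pc 0.18, Fbp1 0.0885, Pcx 0.14, Slc37a4 0.21 and Ldhb -0.00266. With array weights the differences that turned sign were, in dB/dB against wild type Pck1 -0.0353, Fbp1 -0.24, Pcx -0.0810 and Slc37a4 -0.28, in dB/dB catalase-Tg against dB/dB Pck2 0.28, in catalase-Tg against wild type Pck1 -0.15, in dB/dB catalase-Tg against catalase-Tg Pck2 0.30, G6pc 0.12, Fbp1 0.0680, Pcx 0.11 and Slc37a4 0.17. With median centring the differences that turned sign were, in dB/dB against wild type Mdh1 0.12 and Ldhb 0.0916, in dB/dB catalase-Tg against catalase-Tg Pck2 0.0202. With the score of other kidney cells as a covariate the differences that turned sign were, in dB/dB against wild type G6pc 0.69 and Mdh1 0.0433, in dB/dB catalase-Tg against dB/dB G6pc -0.21, Pcx -0.71 and Slc37a4 -0.33, in catalase-Tg against wild type Pck1 -0.38, G6pc -0.0613, Pcx -0.15, Slc37a4 -0.0107 and Mdh1 -0.0354, in dB/dB catalase-Tg against catalase-Tg Pck2 0.0699, G6pc 0.54, Fbp1 0.39, Pcx 0.80 and Slc37a4 0.75. With the proximal tubule score as a covariate the differences that turned sign were, in dB/dB catalase-Tg against dB/dB G6pc -0.0602, Pcx -0.55 and Slc37a4 -0.17, in catalase-Tg against wild type Pck1 -0.11 and Mdh1 -0.00587. With quantile normalization the differences that turned sign were, in catalase-Tg against wild type Mdh1 -0.0434. On another probe set of the gene they were, in dB/dB against wild type Pck1 -0.56, in dB/dB catalase-Tg against dB/dB Mdh1 -0.36, in catalase-Tg against wild type Mdh1 -0.0678 and Mdh1 -0.22, in dB/dB catalase-Tg against catalase-Tg Mdh1 -0.26, Mdh1 -0.11 and Ldhb -0.0518.

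With each array left out in turn, the differences that turned sign at least once ranged as follows: in dB/dB against wild type they ran from Pck1 -0.24 to 0.49, G6pc -1.25 to 0.34, Fbp1 -0.46 to 0.36, Pcx -0.55 to 0.99, Slc37a4 -0.76 to 0.72, Mdh1 -0.0311 to 0.0105 and Ldhb -0.11 to 0.0306; in dB/dB catalase-Tg against dB/dB they ran from Pck2 -0.29 to 0.34; in catalase-Tg against wild type they ran from Pck1 -0.10 to 0.63 and Pck2 -0.22 to 0.00246; in dB/dB catalase-Tg against catalase-Tg they ran from Pck2 -0.30 to 0.33, G6pc -0.80 to 0.0227, Fbp1 -0.25 to 0.0693, Pcx -0.61 to 0.42, Slc37a4 -0.49 to 0.26 and Ldhb -0.0243 to 0.12.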

Other observations

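Xist, Eif2s3y and Kap were read as descriptors of the arrays. Kap, a gene of the proximal tubule that androgen induces and whose promoter drove the transgene in earlier work on these mice, read 13.04, 15.29 and 14.62 in dB/dB catalase-Tg and 13.59, 12.79 and 13.70 in dB/dB. It read 8.46, 15.26 and 15.22 in catalase-Tg and 8.63, 11.70 and 15.23 in wild type. The low Kap arrays catalase-Tg 1 and wild type 1 read 13.74 and 12.35 for Pck1, and 13.22 and 9.75 for G6pc. They also differ in the transgene and in the proximal tubule score (0.04 and -1.82), and a relation of Kap to these genes was not tested. Markers of the last part of the proximal tubule (6 genes tested) had a mean centred score of -0.80, 1.74 and 1.06 in dB/dB catalase-Tg, -0.87, -1.59 and -0.50 in dB/dB, -2.85, 2.36 and 2.32 in catalase-Tg, and -2.27, -0.25 and 1.64 in wild type. On catalase-Tg 1 that score was at its lowest while G6pc was at its highest of the 12 arrays. That is a single array, and a relation between the score and G6pc was not tested.

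Pdk1, a kinase that holds pyruvate dehydrogenase inactive, had the lowest unadjusted p among the enzymes of glycolysis and pyruvate dehydrogenase control in dB/dB catalase-Tg against catalase-Tg. It averaged 8.73 ± 0.36 in dB/dB catalase-Tg and 6.26 ± 0.22 in catalase-Tg, a difference of 2.47 (SE 0.57) without overlap and with an adjusted p of 0.466 in limma. In the same comparison Pkm averaged 9.63 ± 1.03 in dB/dB catalase-Tg and 6.96 ± 0.04 in catalase-Tg, and Pdk4 6.27 ± 0.52 in dB/dB catalase-Tg and 4.70 ± 0.22 in catalase-Tg. The loop of Henle and distal tubule markers had 9 of 10 differences above 0 there, with a median of 2.22, and their part in these values was not tested. These genes were named after their values were seen.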
